A study of Mus musculus with 40 samples.

Results

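The carbonic anhydrase genes of the mouse were followed here in dorsal root ganglia, the clusters of sensory neurons beside the spinal cord, over the days after a nerve lesion. The family was given as a list of 10 genes (Car2, Car3, Car4, Car5b, Car7, Car8, Car10, Car11, Car12 and Car14), and a probe counted as a member when the array's probe table assigned it to one of them. That rule found 11 of the array's 25697 probes, covering 8 of the 10 genes. Car8 and Car10 had no probe in that table and are not analysed here. Car12 was above the detection level on 0 of 40 arrays, so 7 members entered the tests among 10519 genes.

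The tissue came from adult male C57BL/6J mice aged 9 to 10 weeks. In spared nerve injury, part of the sciatic nerve is cut and tied while a neighbouring branch is left whole, so a ganglion holds damaged and undamaged neurons. Injured ganglia were taken at 8 h, 16 h and 1, 2, 3, 4, 5, 6, 7, 8, 9 and 10 days, with 3 arrays at each time except 2 arrays at 4, 9 and 10 days. Naive ganglia, from mice with no operation, gave 7 arrays. No sham-operated group is analysed here, so surgery and nerve damage cannot be told apart. Nothing in the labels tells an array of 1 mouse from an array of a pool, and p-values measure only the spread between these samples. The times were grouped into an early phase (8 h to 1 day, 9 arrays), a middle phase (2 to 5 days, 11 arrays) and a late phase (6 to 10 days, 13 arrays).

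Carbonic anhydrases catalyse the reversible joining of carbon dioxide and water into bicarbonate and a proton, and so set how fast a cell can buffer acid and move bicarbonate. Members differ in place: Car2, Car3 and Car7 are cytosolic, Car5b is mitochondrial, and Car4, Car12 and Car14 face the outside of the cell. Car8, Car10 and Car11 have lost the catalytic zinc site and act as binding proteins. Car2 is the fast cytosolic form, known in red blood cells, glia and a subset of large sensory neurons, and Car3 is a slow form that is abundant in skeletal muscle and fat.

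Of the 7 members tested, Car3 rose and Car2 fell in the middle and late phases, and no member passed the test in the early phase. The counts were 2 of 7 in the middle phase, 2 of 7 in the late phase and 0 of 7 in the early phase (limma, Benjamini-Hochberg adjusted p under 0.05 over all genes). Over all genes tested, 10.9% passed against naive in the middle phase, 10.9% in the late phase and 1.12% in the early phase. At an unadjusted p under 0.05 the early phase gave 2 members, Car3 and Car11. The median log2 difference over the 7 members was -0.05 in the middle phase and -0.01 in the late phase, against -0.01 and -0.02 over all genes in those phases. An F-test over the 12 injured times called 2 of 7 members, again Car3 and Car2, where 7.52% of all genes passed.

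**Figure D1:**
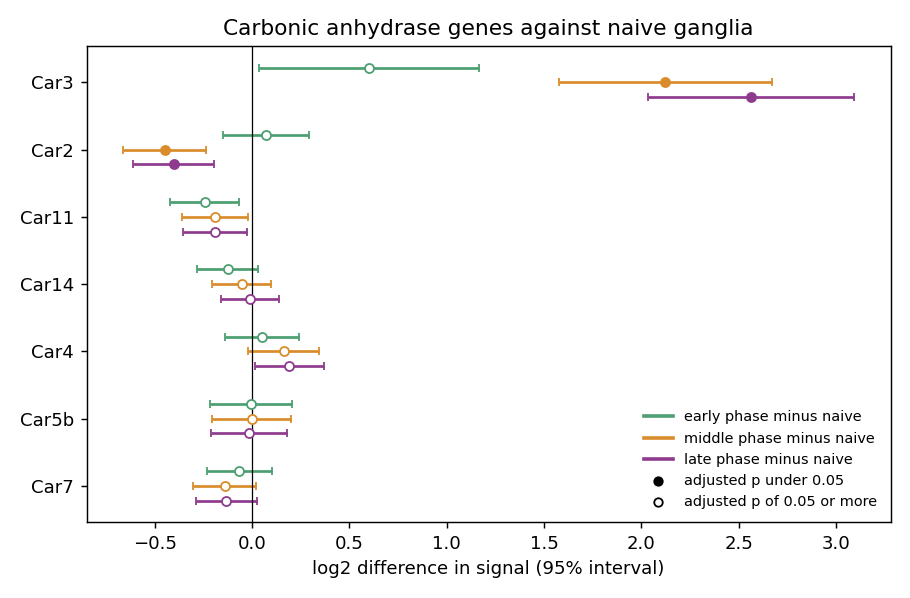
Log2 difference in normalized signal between each phase after injury and naive ganglia (horizontal axis) for the 7 carbonic anhydrase genes tested (rows), with 95% intervals from the limma fit; filled points have an adjusted p under 0.05. Car3 lies at 2.12 and 2.56 in the middle and late phases, Car2 at -0.45 and -0.40, and the intervals of Car11, Car14, Car4, Car5b and Car7 stay between -0.42 and 0.37.

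Car3, the slow cytosolic enzyme, showed the largest difference of the family. In naive ganglia its 7 log2 signals had a lowest value of 6.59, a median of 7.00 and a highest value of 7.73. The detection level was 6.85 on this scale, and 4 of 7 naive arrays exceeded it. The low end of the naive range is therefore near background, and differences from it depend on how background is treated.

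In the early phase the Car3 signals were uneven between arrays of the same time. The 3 arrays at 8 h read 8.29, 9.52 and 6.65, those at 16 h read 8.19, 7.07 and 7.21, and those at 1 day read 6.97, 7.92 and 7.83. Of these 9 arrays 5 lay above the highest naive value and the rest lay inside the naive range. The early phase averaged 7.74 ± 0.88 against 7.14 ± 0.49 in naive ganglia (SD, n = 9 and 7). The difference was 0.60 ± 0.28 (log2, SE) with a limma adjusted p of 0.399, so it did not pass the test.

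From 2 days on, Car3 was above the whole naive range on each array. The 2-day arrays read 8.45, 8.51 and 8.80, and the 3-day arrays read 9.31, 9.96 and 9.22. The 4-day arrays read 9.52 and 9.49, and the 5-day arrays read 9.21, 9.51 and 9.66. The values at 2 days lay above 7.73 in naive ganglia and below the lowest value of 3 days. They lay inside the range of the 8-h arrays, 6.65 to 9.52. The middle phase averaged 9.24 ± 0.48 against 7.14 ± 0.49 in naive ganglia (SD, n = 11 and 7), a 4.35-fold higher signal (log2 difference 2.12 ± 0.27, SE, limma adjusted p = 4.49e-07). All 11 middle-phase arrays lay above all 7 naive arrays, and 1.75% of all genes showed such a gap upward in that phase.

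The late arrays were also above the naive range. The 6-day arrays read 9.53, 9.43 and 9.39, the 7-day arrays 9.69, 9.90 and 9.65, and the 8-day arrays 10.88, 9.63 and 9.37. The 9-day arrays read 10.14 and 8.98, and the 10-day arrays 10.19 and 9.39. The late phase averaged 9.71 ± 0.48 against 7.14 ± 0.49 in naive ganglia (SD, n = 13 and 7), a 5.90-fold higher signal (log2 difference 2.56 ± 0.26, SE, limma adjusted p = 4.11e-09). All 13 late arrays lay above the naive range, as was the case upward for 1.83% of all genes. On the deposited scale, before any processing here, the Car3 signal had a median of 816 intensity units (504 to 2316) on late arrays, 606 on middle arrays and 293 on early arrays, against 194 (150 to 344) on naive arrays.

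Tested time by time against naive ganglia, Car3 passed at 9 of 12 times, each from 2 to 10 days. The shares of all genes called at 2 to 10 days were 3.86%, 5.82%, 2.45%, 6.93%, 5.2%, 6.05%, 4.18%, 2.02% and 2.8% in time order, and those at 8 h, 16 h and 1 day were 0.105%, 0.713% and 1.65%. The log2 difference was 1.45 ± 0.38 at 2 days (SE, limma adjusted p = 0.022), 2.36 ± 0.38 at 3 days, 2.61 ± 0.38 at 7 days and 2.82 ± 0.38 at 8 days. At 8 h, 16 h and 1 day it was 1.01, 0.35 and 0.43 (SE 0.38 each), with adjusted p of 0.843, 0.778 and 0.686. With 1 array left out, the 16-h value ran from 0.003 (without replicate 1 of that time) to 0.56 (without replicate 2), and the 1-day value from 0.26 (without replicate 2) to 0.74 (without replicate 1). The call at 2 days was lost when any 1 of its 3 arrays was left out (adjusted p 0.0676 to 0.147). The calls at 9 and 10 days were lost without replicate 1 of each (differences 1.84 and 2.25, adjusted p 0.212 and 0.0619).

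Ordered by mean, the Car3 groups ran naive, 16 h, 1 day, 8 h, 2 days, 6 days, 5 days, 3 days, 4 days, 9 days, 7 days, 10 days and 8 days. Neighbours in that order overlapped in range at each step but 1, the step from 2 days (highest 8.80) to 6 days (lowest 9.39). The order among the times from 3 to 10 days is therefore not resolved. The late phase exceeded the early phase by 1.96 ± 0.24 (log2, SE, limma adjusted p = 3.08e-07), with 2 of 7 members and 7.08% of all genes passing in that comparison. It exceeded the middle phase by 0.44 ± 0.23 (adjusted p = 0.416, 95% interval -0.03 to 0.91), where 0 of 7 members and 0.646% of all genes passed. No member had an unadjusted p under 0.05 in that last comparison.

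**Figure D2:**
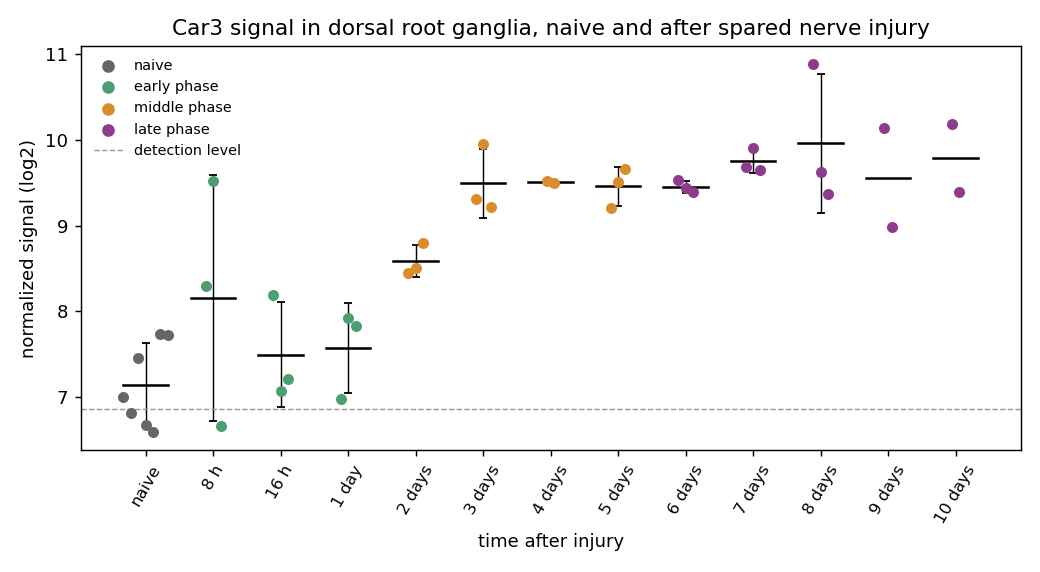
Normalized Car3 signal (log2, vertical axis) on each of the 40 arrays in naive ganglia and at 12 times after injury; points are arrays, thick bars are group means, thin bars are SD (groups of 3 or more), and the dashed line is the detection level of 6.85. The 8-h arrays spread from 6.65 to 9.52, and the arrays from 2 days on lie above the highest naive value of 7.73.

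The size of the Car3 difference followed the background treatment more than the direction did. With the neqc method, which takes its background from the deposited detection p-values, the middle and late differences were 1.21 and 1.59 (log2, adjusted p 7.42e-06 and 1.96e-08), and the 2-day call was lost (0.69, adjusted p = 0.136). Those detection p-values followed the signal on 3 of 40 arrays only, which limits the background that neqc takes from them. On the authors' deposited log2 values, which carry no background correction, the differences were 1.70 and 2.10, both still called. The array gave Car3 a single probe, so no second probe bears on it.

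Car3 also varied more within groups than most genes did. Its pooled within-group SD was 0.60 (log2), a value exceeded by 1.07% of all genes, against a median of 0.19. Skeletal muscle and fat, which can adhere to a dissected ganglion, express Car3, so their marker genes were measured beside it. A list of 28 muscle genes had 24 tested: 0 passed in the early phase, 1 rose in the middle phase and 2 rose in the late phase. These, named after their values were seen, were Tnnc1, the troponin C of slow and cardiac muscle (0.84 ± 0.12 middle and 0.96 ± 0.12 late, log2, SE), and Tnni1, the slow skeletal troponin I (0.25 ± 0.08 late, limma adjusted p = 0.0382). The largest late differences of the list, uncalled, were Myl1 at 1.32 ± 0.87 and Atp2a1 at 1.22 ± 0.74 (SE, limma adjusted p 0.424 and 0.364). Early, Myl1 and Atp2a1 differed by 1.46 and 1.34 and Tnnc1 by -0.01. In the middle phase Myl1 and Atp2a1 differed by 0.38 and 0.30. Over all genes 5.72% rose in the middle phase and 5.76% in the late phase. The median difference of the list was 0.47 early, 0.12 middle and 0.49 late, against -0.01, -0.01 and -0.02 over all genes.

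The mean of the 24 muscle genes ranged from 6.70 to 9.17 on early arrays, 6.77 to 8.89 on middle arrays and 6.75 to 10.77 on late arrays, against 6.71 to 8.50 on naive arrays (log2). Summed on the linear scale, the muscle list had medians of 7404, 3388 and 7432 signal units on early, middle and late arrays, against 3159 on naive arrays. The late 8-day replicate 1, with the highest Car3 signal of all (10.88), also had the highest muscle mean, 10.77. The 8-h replicate 2, which had the highest early Car3 signal (9.52), had a muscle mean of 9.17.

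The 6 arrays of 2 and 5 days had muscle means of 6.77 to 7.03, inside the lower part of the naive range, and Car3 of 8.45 to 9.66. The arrays of 3 and 4 days, between them in time, had muscle means of 6.79 to 8.89 and Car3 of 9.22 to 9.96. Of the middle arrays, 3-day replicate 2 had the highest muscle mean and the highest Car3. The 1-day replicate 1 had a muscle mean of 8.47 with Car3 at 6.97. Naive replicate 6 had the highest muscle mean of the 7 naive arrays, 8.50, and also their highest Car3, 7.73. Over those 7 arrays Car3 correlated with the muscle mean at r = 0.59 and with the adipocyte mean at r = 0.94. Within groups, where group means are removed, Car3 correlated with the muscle mean at r = 0.69 and with the adipocyte mean at r = 0.75 over the 40 arrays, which share their library and scaling. Within groups Car3 gained 0.46 ± 0.09 log2 units (SE) for each log2 unit of the muscle mean. In a separate fit it gained 2.33 ± 0.40 log2 units (SE) for each log2 unit of the adipocyte mean. The part of muscle and fat in the Car3 difference was not tested.

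Of 18 adipocyte genes 10 were tested, and 0 rose in any phase, while 1 fell in the middle and late phases (Thrsp, named after its value was seen). Their mean ranged from 8.17 to 8.95 on early arrays, 8.02 to 8.72 on middle arrays and 7.98 to 8.76 on late arrays, against 8.24 to 8.44 on naive arrays (log2). The fat hormone gene Adipoq was above the detection level on 31 of 40 arrays, and Fabp4, the fatty acid carrier of fat cells, on 0 of 40. Summed, the adipocyte list had medians of 12950, 13020 and 12937 signal units on early, middle and late arrays, against 12932 on naive arrays. Such a sum is set mostly by the brightest gene, Scd1, with a naive mean of 13.18 against 7.27 for Adipoq (log2). It therefore cannot show whether the dimmer genes of the list, or the amount of fat, differed.

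With the muscle and adipocyte means both in the fit as covariates, an alternative added after seeing the data, Car3 differed from naive by 0.34 in the early phase, 2.34 in the middle phase and 2.55 in the late phase (log2). The last 2 remained called (limma adjusted p = 4.91e-11 and 5.1e-12). Leaving out the 3 arrays of highest muscle mean, also added later, gave 0.37, 2.06 and 2.47 in the same order of phases. The middle and late values kept their calls in both settings, and the early value moved by over 1.5 times in both. Neither setting measures how much muscle or fat RNA an array held, so the part of these tissues in the Car3 difference was still not tested. Without 8-h replicate 2 alone the early difference was also 0.37, and the 8-h difference was 0.33. Without 8-h replicate 3, which had the lowest Car3 of that time, the 8-h difference was 1.76 and passed (adjusted p = 0.0461).

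**Figure D3:**
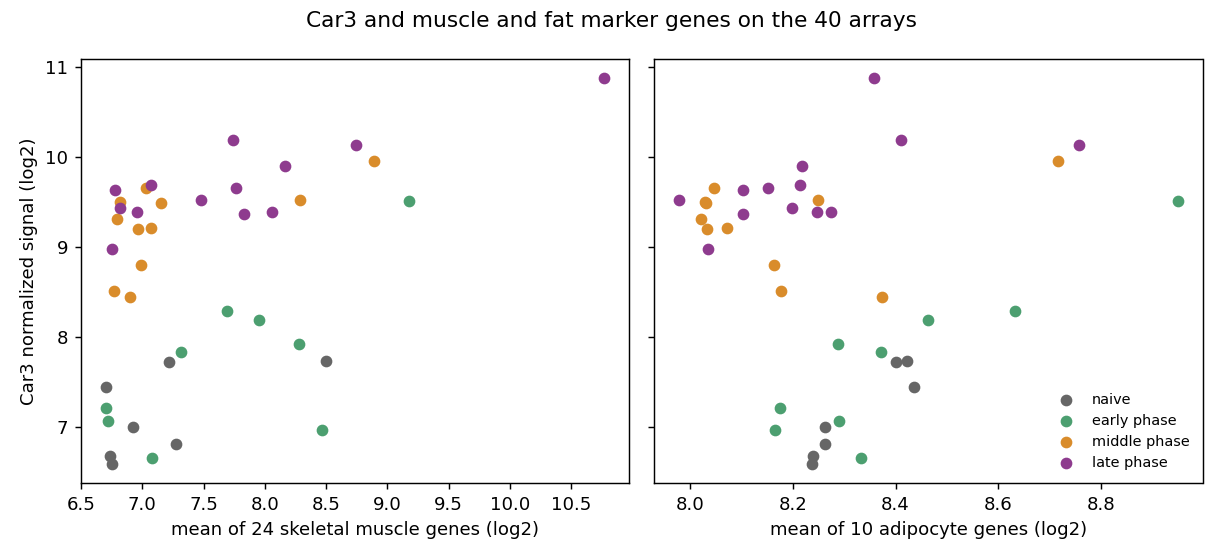
Car3 signal (log2, vertical axes) on the 40 arrays against the mean of 24 skeletal muscle genes (left) and of 10 adipocyte genes (right), both log2; each point is an array coloured by phase. Middle and late arrays have a Car3 of 8.45 or more and muscle means of 6.75 to 10.77, and naive arrays have a Car3 of 7.73 or less and muscle means of 6.71 to 8.50.

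Car2, the fast cytosolic enzyme, moved the other way. In naive ganglia its 7 log2 signals had a lowest value of 8.97, a median of 9.39 and a highest value of 9.90. The early arrays read 9.43, 9.33 and 9.58 at 8 h, 9.73, 9.71 and 9.61 at 16 h, and 9.26, 9.48 and 9.28 at 1 day, all inside that range. The early difference was 0.07 ± 0.11 (log2, SE, adjusted p = 0.854, 95% interval -0.15 to 0.29).

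From 2 days on, each Car2 value lay below the naive mean of 9.42, though many stayed inside the naive range. The 2-day arrays read 8.83, 9.02 and 9.41, the 3-day arrays 8.94, 8.83 and 8.90, the 4-day arrays 8.71 and 9.13, and the 5-day arrays 8.88, 9.10 and 8.99. The middle phase averaged 8.98 ± 0.19 against 9.42 ± 0.31 in naive ganglia (SD, n = 11 and 7), a log2 difference of -0.45 ± 0.10 (SE, 0.733-fold, limma adjusted p = 0.00333). Of 11 middle arrays 6 lay below the lowest naive value, so the groups overlapped.

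The late Car2 arrays read 9.06, 9.02 and 9.16 at 6 days, 9.34, 8.73 and 8.95 at 7 days, 9.14, 9.11 and 8.92 at 8 days, 8.87 and 8.80 at 9 days, and 9.36 and 8.87 at 10 days. The late phase averaged 9.02 ± 0.20 against 9.42 ± 0.31 in naive ganglia (SD, n = 13 and 7), a log2 difference of -0.40 ± 0.10 (SE, 0.757-fold, limma adjusted p = 0.00679). Here 6 of 13 arrays lay below the naive minimum, and the groups overlapped again. The late difference kept its size but lost its call when arrays were centred on their median in place of quantile normalization (-0.40, adjusted p = 0.124).

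Against the early phase, late Car2 was lower by a log2 difference of -0.47 ± 0.09 (SE, limma adjusted p = 0.000683), and late and middle values differed by 0.05 ± 0.09 (adjusted p = 0.859, 95% interval -0.14 to 0.23). Of the 12 single times only 3 days passed against naive (-0.53 ± 0.15, SE, adjusted p = 0.0261, 5.82% of all genes called). That call was lost without naive replicate 1 or 3 or 3-day replicate 2 or 3 (differences -0.45 to -0.53, adjusted p 0.0587 to 0.123). Without naive replicate 6, Car2 also passed at 5, 7 and 9 days (-0.51, -0.49 and -0.66, adjusted p 0.0258, 0.0329 and 0.0223), and without 7-day replicate 1 it passed at 7 days (-0.58, adjusted p = 0.0329). In the order of group means, 9 of the 12 injured times lay under 1 day, naive, 8 h and 16 h, and neighbours overlapped at each step except between 8 h and 16 h. A second Car2 probe exceeded the detection level on 2 of 40 arrays and was not used.

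**Figure D4:**
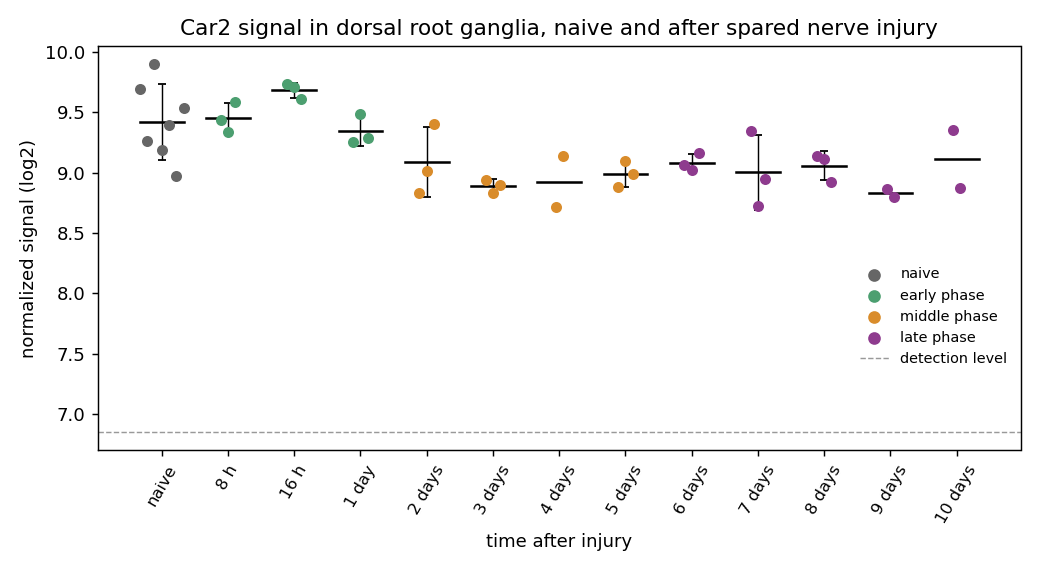
Normalized Car2 signal (log2, vertical axis) on each of the 40 arrays in naive ganglia and at 12 times after injury; points are arrays, thick bars are group means, thin bars are SD (groups of 3 or more), and the dashed line is the detection level of 6.85. Arrays from 2 to 10 days lie between 8.71 and 9.41, under the naive mean of 9.42 but overlapping the naive range of 8.97 to 9.90.

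Car2 is a marker of large sensory neurons, so genes known in large-fibre and muscle-spindle neurons were set beside it. Of 14 such genes 10 were tested, and 0 fell in the early phase, 5 in the middle phase and 6 in the late phase, with 0 higher in each. Over all genes 0.276%, 5.21% and 5.11% fell in those phases. The late fall was -0.79 ± 0.08 (log2, SE) for Whrn and -0.67 ± 0.12 for Etv1, a transcription factor of spindle afferents. The mean of the 10 genes ranged from 10.43 to 10.61 on middle arrays and 10.32 to 10.54 on late arrays, against 10.80 to 10.89 on naive arrays, with medians of 10.47, 10.43 and 10.83. In whole ganglia, fewer cells of a type and less RNA per cell cannot be told apart, for these genes or for Car2 and Car3. Over the 40 arrays Car2 correlated with that mean at r = 0.70, but within groups at r = 0.05, so the relation lies between groups. Of 8 genes of nociceptors, the pain-sensing neurons, 5 were tested, with 1 lower in the middle phase and 0 called in the late phase. Their median log2 difference was -0.30 middle and -0.15 late. Car2 correlated with their mean at r = 0.64 over the 40 arrays and at r = 0.43 within groups. The part of either kind of neuron in the Car2 difference was not tested.

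Red blood cells also carry Car2: of 10 erythrocyte genes 5 were tested, and 0 passed against naive in any phase. Between the late and the early phase 1 of the 5 fell, where 2.68% of all genes fell. The list median of that comparison was -0.27 (log2), against -0.01 over all genes. Of 5 myelin and Schwann cell genes tested 0 passed in the middle phase and 1 rose in the late phase, and of 5 satellite glia genes 0 passed in either. With the muscle mean as a covariate the middle and late Car2 differences were -0.44 and -0.37, both still called. Car2 and Car3 moved in opposite directions across the 13 group means (r = -0.85), which share the normalization, while within groups r was 0.07.

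On chromosome 3 of the mouse, Car13, Car1, Car3 and Car2 are next to each other in that order among protein-coding genes of the RefSeq table. Of the neighbours of Car3, Car2 fell as given above. Car13, another cytosolic form, differed from naive by 0.10 ± 0.10 early, 0.26 ± 0.09 middle and 0.20 ± 0.09 late (log2, SE, limma adjusted p 0.753, 0.0636 and 0.171), and did not pass. Car1 had no probe in the probe table and is not analysed here.

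Car7, the third cytosolic member and known as a neuronal form, was near the detection level. Its arrays read 6.63 to 7.16 in the middle phase and 6.58 to 7.26 in the late phase, against 6.87 to 7.19 in naive ganglia (log2). All 7 naive arrays exceeded the detection level, against 7 of 11 middle and 7 of 13 late arrays, and 0 of 2 at 4 days. The difference was -0.14 ± 0.08 in the middle phase and -0.13 ± 0.08 in the late phase (SE, limma adjusted p 0.284 and 0.344), with 95% intervals of -0.30 to 0.02 and -0.29 to 0.03. No change passed the test.

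Car5b, the mitochondrial member, had 3 probes, and the brightest was used. Its signal spanned 6.67 to 7.44 in the middle phase and 6.85 to 7.24 in the late phase, against 6.68 to 7.28 in naive ganglia (log2). The differences were 0.00 ± 0.10 middle and -0.01 ± 0.10 late (SE, adjusted p 0.996 and 0.973), and the late 95% interval was -0.21 to 0.18. The other 2 Car5b probes gave mean signals of 6.92 and 6.77 on late arrays, against 6.95 and 6.75 on naive arrays. They exceeded the detection level on 21 and 9 of 40 arrays, against 34 of 40 for the probe used.

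Car4 and Car14 act at the outer face of the membrane, Car4 through a lipid anchor and Car14 through a membrane-spanning segment. Car4 read 6.69 to 7.43 on middle arrays and 6.76 to 7.36 on late arrays, against 6.66 to 7.20 on naive arrays (log2). Although 12 of 13 late arrays exceeded the naive mean, only 3 exceeded the naive maximum. The late difference was 0.19 ± 0.09 (SE, limma adjusted p = 0.182, 95% interval 0.01 to 0.37), and the largest single-time value, 0.36 ± 0.13 at 5 days, had an adjusted p of 0.0847. That value passed without naive replicate 2 (0.41, adjusted p = 0.0452) and without 3-day replicate 3 (0.36, adjusted p = 0.0436).

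Car14 exceeded the detection level on all 40 arrays and lay within a narrow band. Its arrays read 7.38 to 7.80 early, 7.55 to 7.96 middle and 7.53 to 7.98 late, against 7.60 to 8.03 in naive ganglia (log2). The differences were -0.13 ± 0.08, -0.05 ± 0.07 and -0.01 ± 0.07 in that order of phases (SE, limma adjusted p 0.58, 0.711 and 0.97). The late 95% interval was -0.16 to 0.14. Car12, a membrane-spanning member like Car14, read 5.98 to 6.60 over the 40 arrays, all under the detection level, and was not tested.

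Car11, a secreted binding protein without enzyme activity that is known to bind neurexins, exceeded the detection level on all 40 arrays. Its signal read 11.25 to 11.77 early, 11.19 to 11.85 middle and 11.24 to 11.75 late, against 11.72 to 11.95 in naive ganglia (log2). Of 13 late arrays 11 lay below the lowest naive value, as did 7 of 9 early and 6 of 11 middle arrays, so each phase overlapped the naive range. The difference was -0.24 ± 0.09 early, -0.19 ± 0.08 middle and -0.19 ± 0.08 late (SE, limma adjusted p 0.224, 0.156 and 0.153), and none passed. With the muscle mean as a covariate the early and late values were -0.30 and -0.24 and both passed (adjusted p 0.0435 and 0.0274), whereas the adipocyte covariate gave no call.

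**Figure D5:**
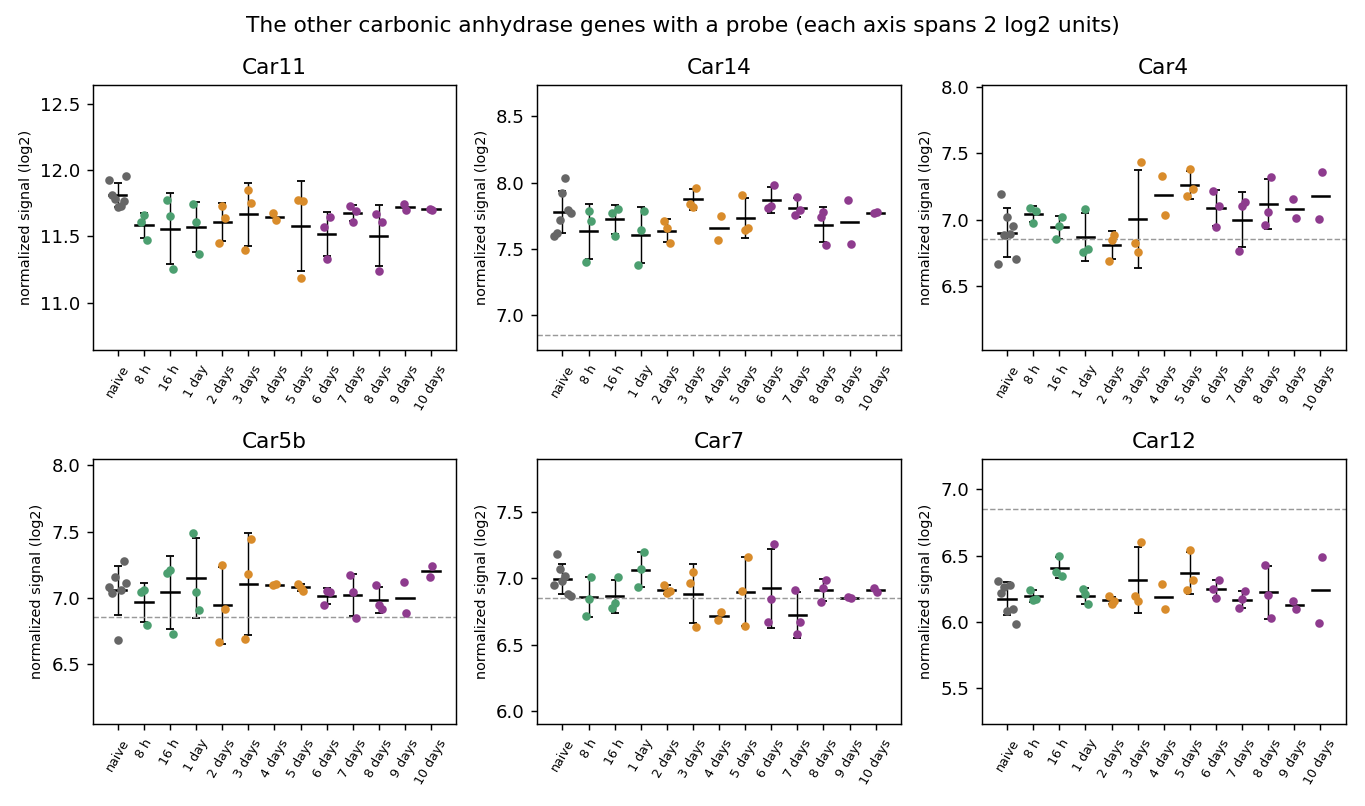
Normalized signal (log2, vertical axes, each spanning 2 log2 units) of Car11, Car14, Car4, Car5b, Car7 and Car12 on each of the 40 arrays in naive ganglia and at 12 times after injury; points are arrays, thick bars group means, thin bars SD (groups of 3 or more), and the dashed line, where in view, the detection level of 6.85. Most late Car11 arrays lie under the naive minimum of 11.72, and Car12 stays under the detection level.

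Genes that work with carbonic anhydrases passed the same test in a single case. Over all genes 1.12%, 10.9% and 10.9% passed in the early, middle and late phases. Of 15 listed bicarbonate transporter genes 7 were tested, and 1 rose in the middle phase, Slc4a2, named after its value was seen, a chloride-bicarbonate exchanger (0.21 ± 0.07, log2, SE, limma adjusted p = 0.0409). Of 14 proton exchanger and monocarboxylate transporter genes 5 were tested and 0 passed in any phase. Of 7 listed partners of the members without enzyme activity, inositol trisphosphate receptors and neurexins, 4 were tested and 0 passed. Of the 6 family genes outside the list of 10, Car13 and Car15 were tested, neither passing, while Car6 and Car9 were above the detection level on at most 2 arrays.

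The genes whose 13 group means were most like those of Car3 were Col7a1 (r = 0.984), Aspscr1 (0.965), Ecel1 (0.963), Pkd2l1 (0.963) and Laptm5 (0.960). Over the 40 single arrays their correlation with Car3 was 0.764, 0.866, 0.871, 0.836 and 0.898 in that order, and within groups it was 0.01 to 0.55. Their late differences from naive were 0.65 ± 0.12 for Col7a1, 1.15 ± 0.09 for Aspscr1 and 2.85 ± 0.13 for Ecel1 (log2, SE), beside 2.56 ± 0.26 for Car3. The genes most like Car2 were Ogfrl1 (r = 0.938) and Ly6h (0.934), with late differences of -0.51 ± 0.08 and -0.27 ± 0.09. These genes were picked from all 10519 for their likeness, so the values are a description.

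Of 5 genes long known to respond to nerve injury (Atf3, Sprr1a, Gal, Npy and Gpr151), 5 rose in the middle and late phases, with a median log2 difference of 4.14 in the late phase. Of 8 macrophage genes 7 rose in the middle phase and 8 in the late phase, where 5.72% and 5.76% of all genes rose. The mean of the 8 macrophage genes ranged from 8.71 to 9.19 on middle arrays and 8.93 to 9.23 on late arrays. On naive arrays it ranged from 8.09 to 8.31, and the part of macrophages in the Car3 difference was not tested. Isl1 and Prph, genes that mark sensory neurons of the labelled tissue, exceeded the detection level on 40 of 40 arrays. Of 7 general neuron genes tested, 2 fell in the late phase, Rbfox3 and Isl1, by 0.24 and 0.23 on the log2 scale. Median raw signal per array ran from 130 to 245 units, and the number of arrays per time limits the precision of single-time values.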

How the data were processed

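RNA of each sample was measured on 1-colour Illumina bead arrays, and 40 arrays were used. The deposited table held 1 intensity per probe and array, not normalized, with a detection p-value beside it per the file headers. The authors also deposited a log2 table, each value of which differed by at most 0.038 from quantile-normalized log2 intensities. The detection p-value followed the signal on 3 of 40 arrays only, so those 3 set the detection level (6.85, range 6.82 to 6.88). One detection column, of 10-day replicate 2, carries the name of another time in its header.

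Here the intensities had their background removed by normexp with an offset of 50 and were then put through quantile normalization and log2, in limma 3.58.1 (R 4.3.3). Of 25697 probes, 23978 had 1 gene symbol and 1719 none, and 23962 matched RefSeq. The filter kept 15462 probes that exceeded that level on 3 or more arrays, and the brightest per gene gave 10519 genes. A model with 1 mean per group was fitted over all 40 arrays (limma, eBayes with trend), with Benjamini-Hochberg adjustment over all genes at 0.05. Phase values average the group means with equal weight. The code was checked on simulated data.

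Outside the members, genes were named where they were among the 2 of a list with the largest late difference, the 5 closest to Car3 or the 2 closest to Car2 by group means, or defining markers, and others are said to be named after their values were seen. The members and gene lists were chosen with earlier results of these data known. Arrays sharing a replicate number of the labels did not deviate together, and the running numbers in the sample names were not used as a block. Alternatives covered background, scaling, filter, probe choice, variance model, samples, replicate block, tissue covariates and each array left out.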

Additional observations from a re-analysis of the deposited data

Results flagged for a closer look

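Naive replicate 4 lay apart from the other 6 naive arrays as the lowest value on 2 of the 3 Car5b probes, with a gap of 0.591 of the naive range for the probe used and 0.622 for the dimmest probe (limit for 7 arrays 0.568). Chance marks about 1 in 20 groups, and 11 probes were tested. The late phase differed from the early phase for Car3 (1.96, log2) and for Car2 (-0.47, log2), both with a limma adjusted p under 0.05.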

How the results depend on the processing

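Over 6426 comparisons of a member under an alternative, 6388 stayed on their side of the threshold, 143 of them with another sign while uncalled in both, 22 became called, 16 lost a call and 0 reversed while called. Car3 in the middle and late phases and Car2 in the middle phase stayed called under each alternative run, and with each array left out. Median centring lost Car2 in the late phase, leaving 1 member there and 1 in the F-test. The 2-day Car3 call was lost with median centring (1.35, adjusted p = 0.081), neqc and the replicate block. The 3-day Car2 call was lost with only the arrays compared (-0.53, adjusted p = 0.115), with both covariates (-0.49, adjusted p = 0.0575) and without the 3 arrays of highest muscle mean (-0.50, adjusted p = 0.139), against -0.53 as reported. Robust variances and array weights added Car2 calls at 4, 5, 6 and 7 days, Car11 at 6 days (-0.29) and Car4 in the late phase (0.25, adjusted p = 0.0401). The muscle covariate, alone or with the adipocyte mean, called 1 member, Car11, in the early phase.

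Counts of genes called moved by over 1.5 times as follows. Early against naive gave 118 genes, against 58 with median centring, 212 with robust variances, 39 with the replicate block, 226 with the muscle covariate, 212 with both covariates and 65 with only the arrays compared. Middle against naive gave 1150, against 722 with median centring, 2127 with robust variances and 649 with the block. Late against naive gave 1144, against 577 with median centring and 551 with the block. Late against early gave 745, against 427 with median centring. Late against middle gave 68, against 25 with median centring, 388 with robust variances, 44 with the adipocyte covariate, 39 with only the arrays compared and 31 without the 3 arrays of highest muscle mean. The F-test gave 791, against 356 with median centring, 4553 with robust variances and 505 with the block. With 1 array left out, early ranged from 76 to 162 genes, middle from 864 to 1253, late from 935 to 1225, late against early from 602 to 783, late against middle from 30 to 207 and the F-test from 688 to 1114. The share of calls that were higher was 94.8% with median centring against 75.4% early, 41.3% against 52.3% middle, 65% against 53% late and 84% against 54.4% for late against middle. The block counts against naive rest on naive replicates 1 to 3 only, because the higher replicate numbers occur in no other group. The causes of these moves were not tested.

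Samples with the same replicate number did not deviate together (median r -0.02 over 201 pairs, and 7 of 40 arrays correlated best with their own number). The replicate numbers do not follow the running numbers in the sample names throughout. The check and the block therefore cannot show whether arrays close in that running order deviated together, which was not tested. With the replicate block, Car3 at 2 days had a limma adjusted p of 0.0762, and Car2 passed at 5, 7 and 9 days. Replicate numbers 4 to 7 occur only among naive arrays, so the block terms absorb those arrays. The differences from naive in that fit therefore rest on naive replicates 1 to 3. Car4, Car5b and Car7 lay near the detection level, where a fold change is compressed, and Car12 lay under it.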

Other observations

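The within-group correlation of Car3 was 0.61 with the mean of 6 endothelial and pericyte genes and -0.54 with the mean of 5 satellite glia genes. With the mean of 8 macrophage genes the within-group correlation of Car3 was 0.20. With Laptm5, which is in no marker list and was picked for its likeness to Car3, it was 0.55. The within-group correlation of Car11 with the mean of 7 neuron genes was -0.69, and with that of the proton exchanger and monocarboxylate transporter genes -0.81. The within-group correlation of Car5b with Car11 was 0.57, the highest of the 21 pairs of members, over 40 arrays that share their normalization.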
